A study of Mus musculus with 7 samples.

Results

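The receptors that carry CD4+ T cells into the B cell follicle and let them help B cells, and the factor that sets this programme, were followed at 5 genes: Cxcr5, Bcl6, Pdcd1, Icos and Sh2d1a. Every region of the accessibility table that overlapped one of these genes or its 10 kb of flank on either side was taken, and all 7 libraries were used. This gave 89 regions of the 113820 in the table, of which 20 lay at Cxcr5, 13 at Bcl6, 20 at Pdcd1, 21 at Icos and 15 at Sh2d1a.

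T follicular helper (Tfh) cells are CD4+ T cells that settle among B cells and drive their maturation. Bcl6 is a transcriptional repressor that is required for this state. CXCR5 is the receptor for CXCL13, the chemokine that marks the follicle. ICOS is a costimulatory receptor that responds to its ligand on B cells, and PD-1, the product of Pdcd1, is an inhibitory receptor that Tfh cells carry at a high level. SAP, the adaptor made from Sh2d1a, links receptors of the SLAM family to signalling and allows stable contact between T and B cells. PD-1 and ICOS are also used by activated T cells outside the follicle, while Bcl6 and CXCR5 are used by B cells as well.

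The study asked which regulatory regions distinguish type-2 cytokine-expressing CD4+ T cells of lymph node and lung. ATAC-seq, in which a transposase inserts adapters into open chromatin, was run on 50000 sorted cells per library. All mice were C57BL/6 reporter animals given 500 L3 larvae of N. brasiliensis, a helminth that passes through the lung, and were examined on day 8. LN IL-4+ cells (n = 2) were GFP+ cells from the mediastinal lymph node of IL-4-4get mice, and lung IL-4+ cells (n = 3) were GFP+ cells from the lung of such mice. Lung IFNγ+ cells (n = 2) were YFP+ cells from the lung of IFN-gamma-Great mice. All were gated as CD3ε+ and CD4+ and as negative for CD11b, CD11c, CD8, B220, NK1.1 and Ter119. The reporters mark cells able to express the cytokine and not a Tfh subset, and no Tfh surface marker was part of the gate. Each GFP+ or YFP+ population was therefore a mixture, and fewer cells of a type and less accessibility per cell cannot be told apart in it. The study describes its replicates as mice of a single experiment, while the labels number libraries without naming an animal, so that p-values measure the spread between these libraries.

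The table held log2 densities, that is transposase insertions per kilobase of region scaled to library size, and libraries held between 14005923 and 91681969 insertions by counts rebuilt from the ties in the table. In 3 libraries (replicate 1 from the LN, with replicates 2 and 3 of lung IL-4+ cells) the counts per region had a narrow spread, and in the other 4 a wide one. This split crossed the IL-4+ populations, while both lung IFNγ+ libraries were of the wide class. In comparisons with IFNγ+ cells, spread class and population are therefore partly confounded. Values within each class are given beside several results. All 6 T cell markers examined (Cd3e, Cd3d, Cd3g, Cd4, Cd5 and Cd2) had a region within 1 kb of a transcription start, with a log2 density between 3.61 and 4.74 in every library. Of the B cell markers, Ms4a1, Cd79a, Cd79b and Cd22 had no region there. Pax5, Ebf1, Blnk, Cr2 and Fcer2a had one each, with a summed density of 60.2 to 79.0 in LN IL-4+, 27.6 to 55.7 in lung IL-4+ and 48.5 to 54.2 in lung IFNγ+ libraries. The summed B cell markers were thus higher in the LN libraries, as the regions of Cxcr5 were, and their part in those results was not tested. The markers were not uniform. At the Pax5 start the log2 density was 5.14 and 5.22 in the LN, 4.45, 3.61 and 2.95 in lung IL-4+ and 4.05 and 4.37 in lung IFNγ+ libraries, whereas at the Ebf1 start it was 3.37 and 3.90, then 3.98, 4.01 and 3.48, then 3.90 and 4.10. Blnk was highest in lung IFNγ+ libraries (2.09 and 1.73). Of 5 myeloid markers, Itgam and Cebpa had a region, with a summed density of 35.9 to 38.0 in LN and 16.2 to 22.7 in lung libraries. Cebpa made up most of this sum, and Itgam had a log2 density of 1.5 and 0.84 in the LN and a higher one, 2.96 and 2.43, in lung IFNγ+ libraries. Of 2 CD8 markers Cd8b1 had one (6.61 to 7.31 in the LN, 2.95 to 5.57 in the lung), and of 4 lung epithelial markers Epcam had one (10.5 to 12.5 and 8.79 to 9.61).

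Between the IL-4+ populations, 2 of the 89 regions were called. A call required that limma's adjusted p was under 0.05 and the fold change reached 3. A single region, in an intron of Pdcd1, was higher in lung IL-4+ cells, where 1.05% of all regions were called in that direction, and 1 region, in an intron of Cxcr5, was higher in LN IL-4+ cells, against 0.695% of all regions. No library of one population reached into the other at 6 regions with the lung higher (6.74% of the members, 13.6% of all regions) and at 25 with the LN higher (28.1% of the members, 14.3% of all regions). Of those 25 regions, 9 were at Cxcr5 and 8 at Sh2d1a.

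Comparing IFNγ+ cells of the lung with LN IL-4+ cells, 2 regions were called, both higher in the LN: the region around a Cxcr5 start and a region downstream of Bcl6. Of all regions, 0.862% were called higher in LN IL-4+ cells and 2.17% higher in lung IFNγ+ cells. Libraries did not overlap at 18 member regions with lung IFNγ+ higher (20.2%) and at 32 with LN IL-4+ higher (36.0%), beside 26.5% and 27.2% of all regions. The 2 comparisons with the LN share its libraries.

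Between the lung populations, 0 of the 89 regions were called in either direction by limma, where 0.108% of all regions were called higher in lung IL-4+ and 0.387% higher in lung IFNγ+ cells. With the same fold and an unadjusted p under 0.05, 3 regions were higher in lung IFNγ+ cells, all at Sh2d1a, and 0 in lung IL-4+ cells, beside 2192 and 1635 of all 113820 regions. The libraries did not overlap at 14 regions with lung IL-4+ higher (15.7%, beside 19.4% of all regions) and at 19 with lung IFNγ+ higher (21.3%, beside 21.2%).

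**Figure D1:**
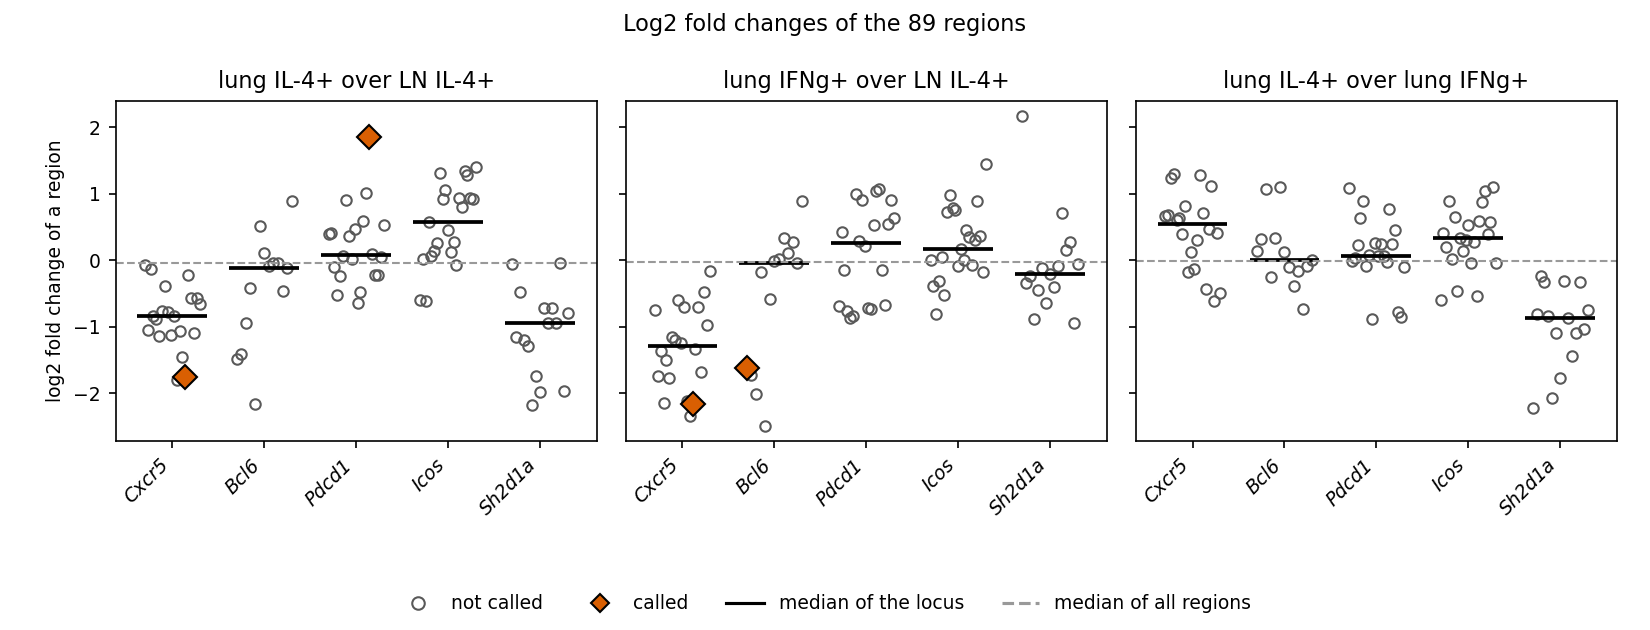
Log2 fold change of each of the 89 regions (y axis) by gene (x axis) in the 3 comparisons, as fitted by limma; diamonds are called regions, solid bars the median of a locus and the dashed line the median of all regions. All 20 Cxcr5 regions lay below 0 in both comparisons with the LN, while Bcl6 and Pdcd1 regions lay on both sides of 0.

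Cxcr5, the homing receptor, had a lower mean accessibility in the lung than in the lymph node at every region of its locus. The gene lies on the minus strand of chromosome 9 (GRCm38, chr9:44511787-44561877), and distances are given from the start at 44526421, since other transcripts of the 5 begin elsewhere. All 20 of its regions had a lower mean in lung IL-4+ and in lung IFNγ+ cells than in LN IL-4+ cells, with median log2 fold changes of -0.83 and -1.28. Over all regions of the table these medians were -0.03 and -0.03, with 52.3% and 51.5% of regions below 0. The libraries did not overlap at 9 and 14 of the 20 regions (45% and 70%, beside 14.3% and 27.2% of all regions). LN IL-4+ replicate 2 lay below the lung IL-4+ mean at some Cxcr5 regions, as at chr9:44507311-44508101 (0.34 beside a mean of 1.67).

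Summed over the 20 regions, which cover 18.9 kb, LN IL-4+ replicates 1 and 2 had 303 and 195 normalized insertions. The 3 lung IL-4+ libraries had 82.9, 142 and 145, and both lung IFNγ+ libraries had 94.8. Every lung library was thus below both LN libraries, and the sums varied within both IL-4+ populations (SD 76.3 in the LN and 35.1 in the lung). The mean of lung IL-4+ cells was lower by -1.01 on the log2 scale (exact two-sided permutation test, p = 0.10, the smallest that 3 against 2 libraries allow; 0.50 after adjustment over 15 such tests), and that of lung IFNγ+ cells by -1.40 (exact permutation p = 0.33, the smallest for 2 against 2). Without LN IL-4+ replicate 1 the difference between the IL-4+ populations was -0.66. Among libraries of the narrow class it was -1.08 and among those of the wide class -1.24, and for lung IFNγ+ cells it was -1.04 within the wide class. Among 17021 protein-coding genes with regions, Cxcr5 had the 328th lowest log2 difference of its sum for the IL-4+ populations, and the median gene was at -0.11.

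**Figure D2:**
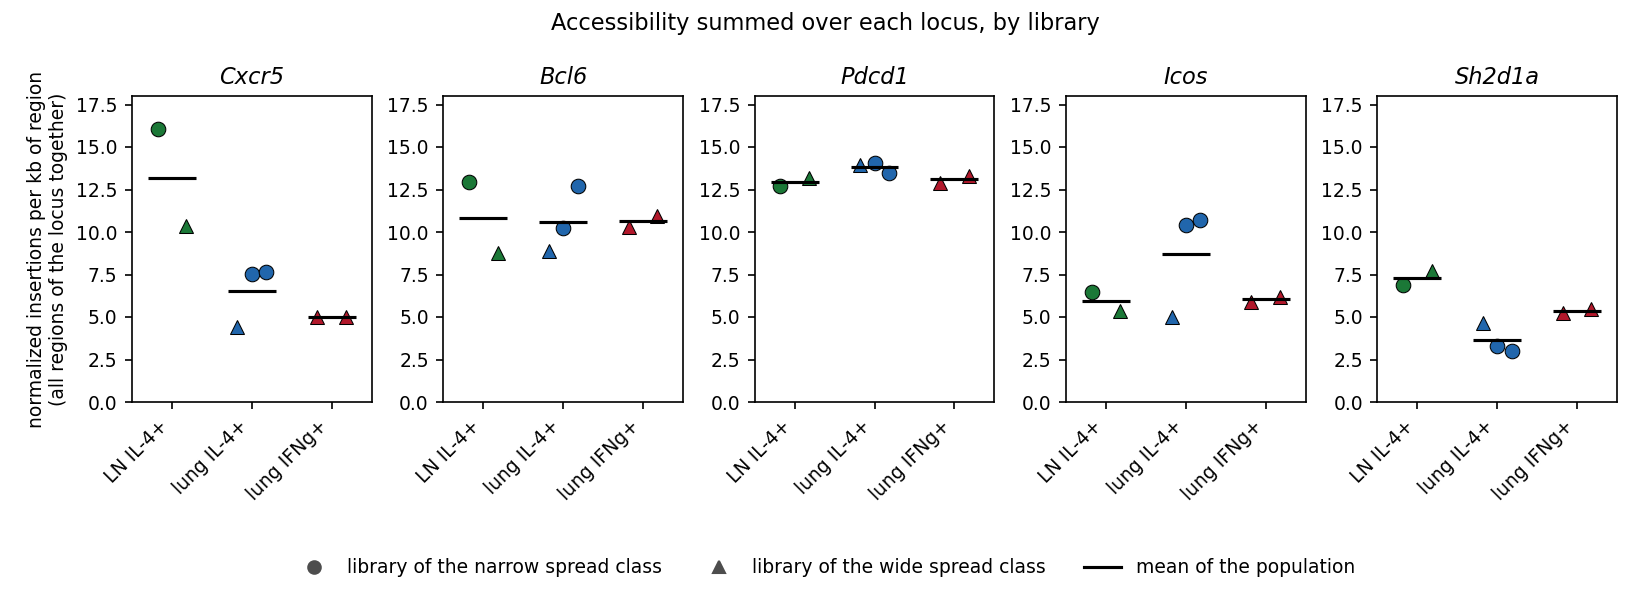
Normalized insertions per kb of region over each locus (y axis, from 0) in every library of the 3 populations (x axis); circles are libraries of the narrow and triangles of the wide spread class, bars are means. At Cxcr5 both LN libraries lay above all lung libraries, at Pdcd1 all 7 libraries lay between 12.7 and 14.0, and at Icos lung IL-4+ replicates 2 and 3 stood above the other 5.

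Accessibility fell past both thresholds at an intron region 7.1 kb upstream of that start (chr9:44533095-44533904). Its log2 density was 5.16 and 5.07 in the LN libraries, 3.09, 3.52 and 3.47 in the lung IL-4+ libraries and 3.69 and 3.89 in the lung IFNγ+ libraries. The populations did not overlap, and lung IL-4+ cells were lowest. The log2 fold change between the IL-4+ populations was -1.76 (standard error 0.22, limma adjusted p = 0.00442), and that of lung IFNγ+ over LN cells was -1.33 (standard error 0.24, adjusted p = 0.0133), short of the fold threshold. The region kept its call between the IL-4+ populations in 16 of 20 other settings of the fit, and with every single library left out. It lost the call under voom on rebuilt counts, under both fits with a replicate block and without the variance trend (adjusted p between 0.0680 and 0.123). Between 142 and 2017 insertions per library lay behind these values.

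The longest Cxcr5 region (4839 bp, chr9:44523976-44528814) spans the start itself and covers part of the body of the gene. Its log2 density was 4.29 and 3.60 in LN IL-4+ cells, 1.59, 3.1 and 2.76 in lung IL-4+ cells and 1.81 and 1.74 in lung IFNγ+ cells. Lung IL-4+ replicate 1 resembled the IFNγ+ libraries here, and the other lung IL-4+ libraries lay between them and the LN. Lung IFNγ+ cells were lower than LN cells by -2.16 (standard error 0.48, adjusted p = 0.0335), and lung IL-4+ cells by -1.46 (standard error 0.44, adjusted p = 0.116). The latter difference was -1.36 within the narrow and -2.00 within the wide class, and it was called, at -1.63, with the spread class as a covariate. The call for IFNγ+ cells was lost on leaving out LN IL-4+ replicate 1 (-1.82, adjusted p = 0.157), lung IFNγ+ replicate 1 (-2.20, 0.227) or replicate 2 (-2.13, 0.220). It was also lost without lung IL-4+ replicate 2 (adjusted p = 0.0505) or replicate 3 (0.0525), which enter that fit through the spread alone. Further losses came under voom on rebuilt counts, under both fits with a replicate block and without the variance trend (adjusted p between 0.0711 and 0.135). The call thus held in 11 of 20 other settings.

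By mean over all libraries, the densest Cxcr5 region was an intron region 10.6 kb into the gene (chr9:44515334-44516339). It had log2 densities of 5.16 and 4.96 in the LN, 3.46, 4.15 and 4.22 in lung IL-4+ and 3.85 and 3.80 in lung IFNγ+ libraries. All lung libraries lay below the LN. The log2 fold changes were -1.12 (standard error 0.25, adjusted p = 0.0421) and -1.24 (standard error 0.27, adjusted p = 0.0331), past the p threshold and short of the fold threshold. The largest fall between the IL-4+ populations, -1.80 (standard error 0.60, adjusted p = 0.158), was at an intron region 7.1 kb downstream of the start (chr9:44519122-44519595), where densities were low and varied within populations. This region too was called with the spread class as a covariate (-1.98). At 6 of the 20 regions, those downstream of the gene, the neighbouring gene Bcl9l overlaps, and they cannot be assigned to either gene.

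Bases from the centre of the called intron region (chr9:44533379-44533619) are printed because this region carries the Cxcr5 call between the IL-4+ populations. They are given 5′ to 3′ on the minus strand, as 241 bases of GRCm38. Here and in the sequences of the other genes, capitals mark a match to a searched motif.
Cxcr5 called intron region: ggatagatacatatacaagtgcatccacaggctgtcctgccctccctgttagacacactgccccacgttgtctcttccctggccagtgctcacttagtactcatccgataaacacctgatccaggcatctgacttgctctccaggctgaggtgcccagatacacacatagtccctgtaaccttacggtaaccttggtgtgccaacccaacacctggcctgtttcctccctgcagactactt
No match to any of the 8 motifs lay in the window of the called region.

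Bcl6, the lineage-defining repressor, had close mean sums in the 3 populations and 1 called region, beyond its 3′ end, between lung IFNγ+ and LN cells. The gene lies on the minus strand of chromosome 16 (chr16:23965052-23988852). Its 13 regions summed to 186 and 126 insertions in LN IL-4+, 128, 148 and 183 in lung IL-4+ and 148 and 158 in lung IFNγ+ libraries. The ranges overlapped fully, with log2 differences of -0.03 between the IL-4+ populations (exact permutation p = 0.80), -0.03 for IFNγ+ over LN cells (exact permutation p = 1.0) and -0.00306 between the lung populations (exact permutation p = 0.80). These p-values do not show that the populations were alike, and the SDs of the sums were 42.6 (n = 2) in the LN and 27.9 (n = 3) in lung IL-4+ cells. As a mean of log2 values over the regions, which gives sparse regions the same weight as dense ones, the differences from the LN were -0.43 for lung IL-4+ and -0.54 for lung IFNγ+ cells.

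At its main start, Bcl6 had the highest density of all 89 regions (chr16:23988529-23989098). The log2 density was 5.69 and 5.60 in LN IL-4+, 5.74, 5.44 and 5.63 in lung IL-4+ and 5.95 and 6.02 in lung IFNγ+ libraries. Lung IFNγ+ libraries were slightly above the others. The fold changes were -0.04 (standard error 0.15, adjusted p = 0.940) between the IL-4+ populations, 0.34 (standard error 0.17, adjusted p = 0.307) for lung IFNγ+ over LN cells and -0.38 (standard error 0.15, adjusted p = 0.296) between the lung populations.

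The called Bcl6 region lies beyond the 3′ end of the gene (chr16:23962374-23962919). Log2 densities were 3.72 and 3.28 in the LN, 1.98, 2.15 and 1.92 in lung IL-4+ and 1.87 and 1.89 in lung IFNγ+ cells. Both LN libraries stood above all 5 lung libraries, which lay close together. Lung IFNγ+ cells were lower by -1.62 (standard error 0.34, adjusted p = 0.0272), at 3.06 fold just past the threshold, and lung IL-4+ cells by -1.48 (standard error 0.31, adjusted p = 0.0329), at 2.79 fold just short of it. The call held in 8 of 20 other settings, and it was lost without LN IL-4+ replicate 1 (-1.40, adjusted p = 0.133), lung IL-4+ replicate 2 (adjusted p = 0.0519), lung IFNγ+ replicate 1 (-1.61, 0.281) or replicate 2 (-1.62, 0.247). Counts were low, between 47 and 339 insertions per library. The region around the start of the short Bcl6 transcript (chr16:23972128-23972528) had the largest change between the IL-4+ populations of all its regions, -2.15 (standard error 1.09, adjusted p = 0.370). Its values ran from 3.59 in LN IL-4+ replicate 1 to -1.90 in lung IL-4+ replicate 1, on as few as 1 insertion, and LN IL-4+ replicate 2 had 0.61. It was called with the spread class as a covariate (-2.63).

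The bases before the main Bcl6 start (chr16:23988853-23989093), which was open in all populations, and the centre of the called 3′ region (chr16:23962526-23962766) are shown for comparison, both on the minus strand.
Bcl6 start: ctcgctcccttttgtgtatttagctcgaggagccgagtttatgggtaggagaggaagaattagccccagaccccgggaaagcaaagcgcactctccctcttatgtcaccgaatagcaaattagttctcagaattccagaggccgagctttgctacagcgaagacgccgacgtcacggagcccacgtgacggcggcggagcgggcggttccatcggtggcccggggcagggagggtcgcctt
Bcl6 3′ region: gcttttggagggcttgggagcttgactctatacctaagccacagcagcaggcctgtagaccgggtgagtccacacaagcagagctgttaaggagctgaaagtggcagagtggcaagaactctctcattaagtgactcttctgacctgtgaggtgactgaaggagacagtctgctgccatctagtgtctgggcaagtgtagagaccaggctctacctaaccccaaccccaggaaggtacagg
Neither window held a searched motif, including that of BCL6 and STAT factors, TTCCNNGAA. Over a central window as long as the shortest region of the table this motif was found in 6 of 89 (6.74%), and in 6.04% of all regions. In that longer window the Bcl6 start region held 1 match to it, and the 3′ region held 1 match to the searched letters CAGCTG.

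**Figure D3:**
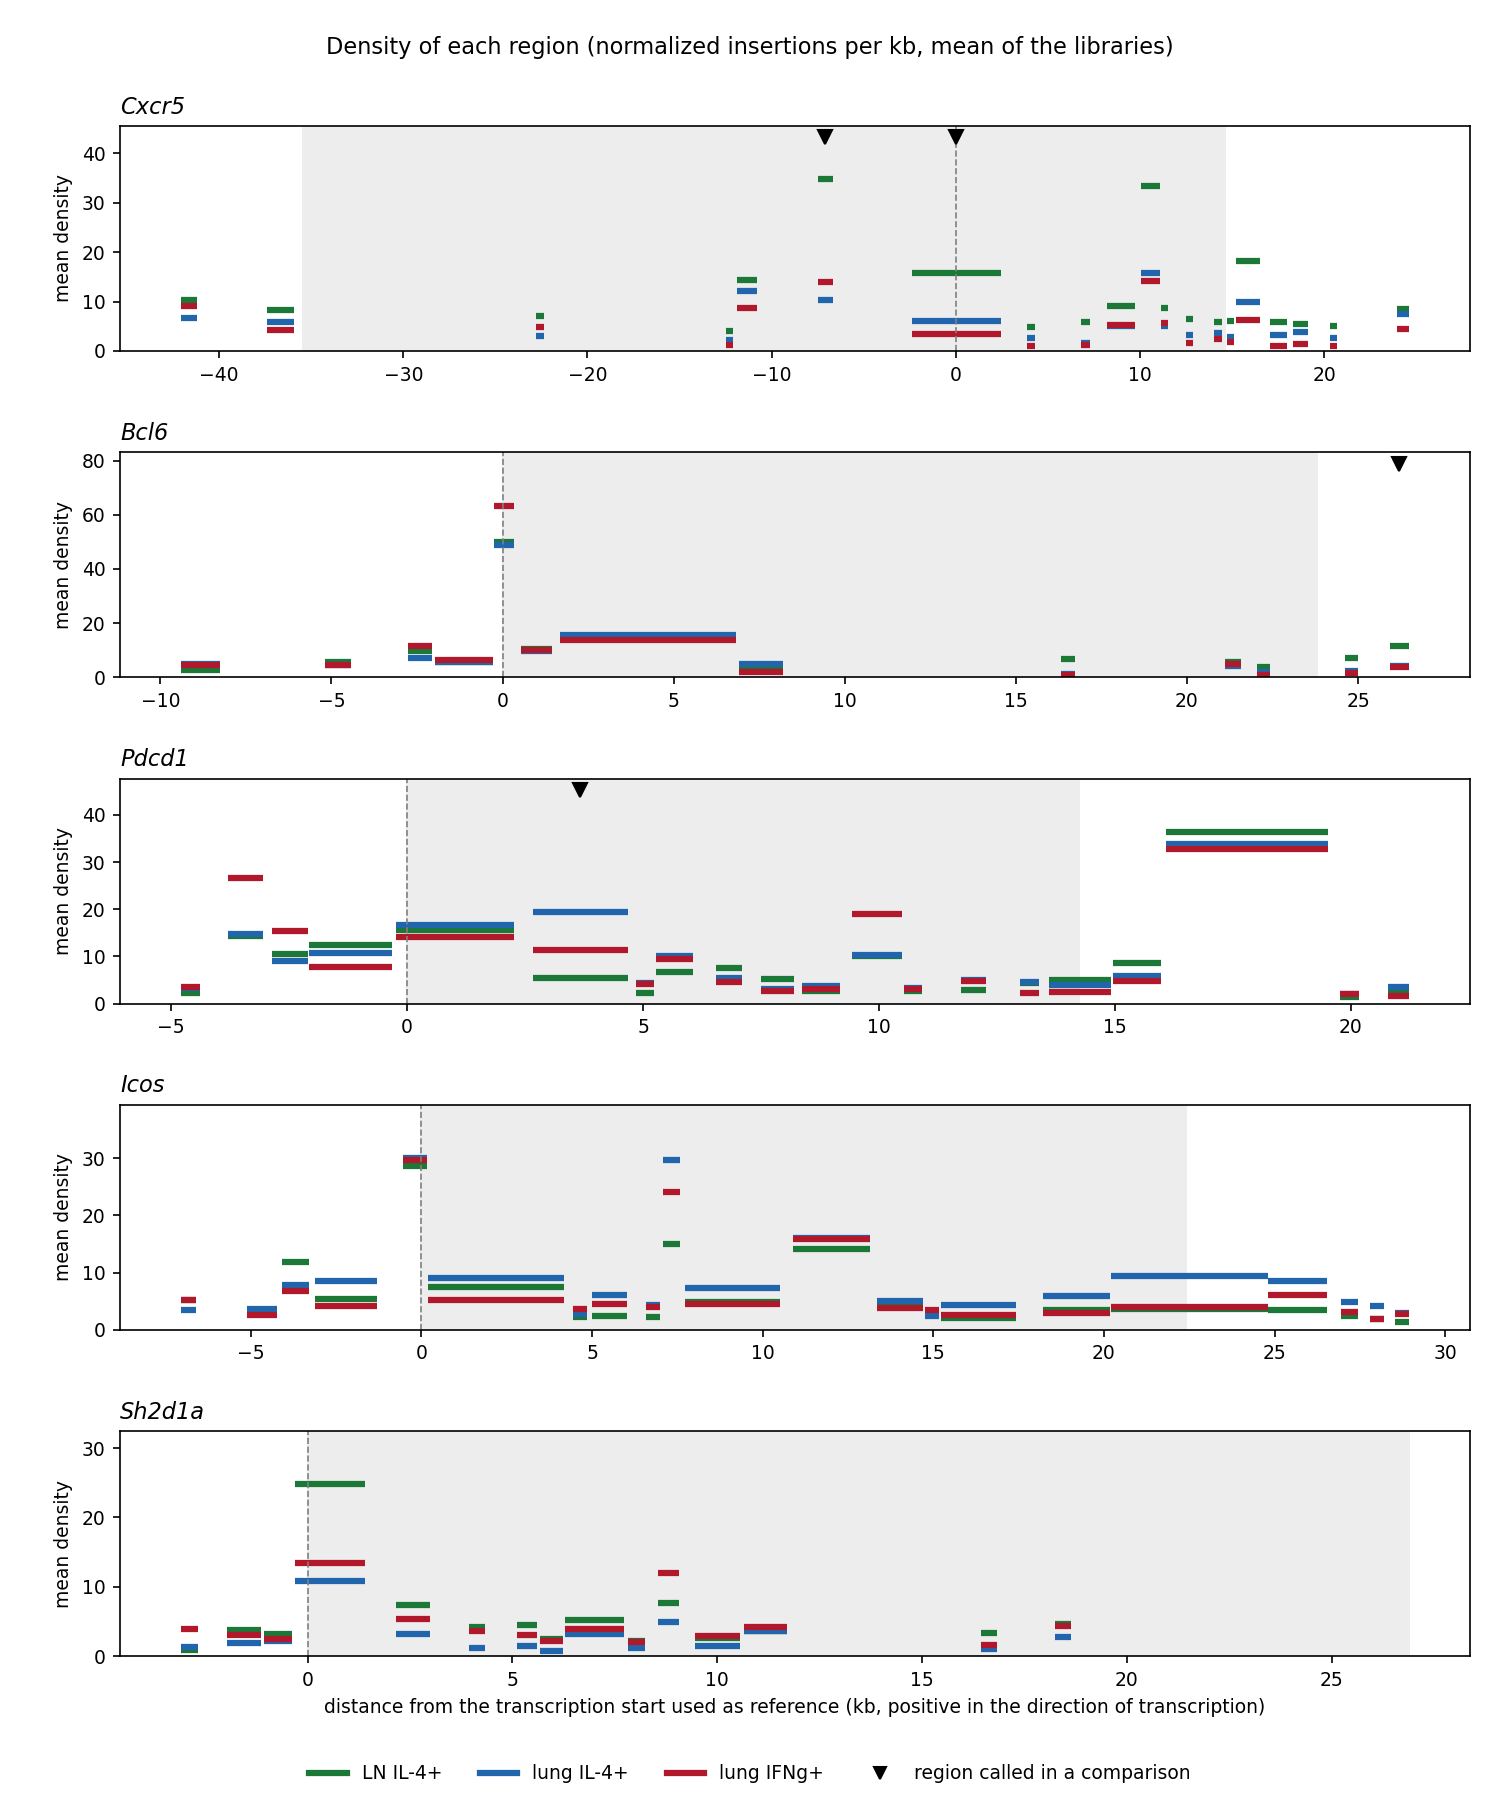
Mean density of each region (y axis, normalized insertions per kb, from 0) against its distance from the start used as reference (x axis, kb) for the 3 populations; grey marks the gene, the dashed line its start and triangles the called regions. LN IL-4+ cells were highest along the whole of Cxcr5, and at the called Pdcd1 region lung IL-4+ cells were highest and LN IL-4+ cells lowest.

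Pdcd1, which encodes PD-1, was higher in the lung at a called intron region, and its sums over the gene with its flanks lay close together. The gene is on the minus strand of chromosome 1 (chr1:94038305-94052553). Its 20 regions summed to 259 and 269 insertions in LN IL-4+, 285, 287 and 275 in lung IL-4+ and 263 and 272 in lung IFNγ+ libraries. Every lung IL-4+ library was above every other library, by a small margin. The log2 difference between the IL-4+ populations was 0.10 (exact permutation p = 0.10, the smallest possible here), that between the lung populations was 0.08 (exact permutation p = 0.20) and that of lung IFNγ+ over LN cells was 0.02 (exact permutation p = 0.667). Over the gene body alone, without the dense region downstream, these differences were 0.46, 0.24 and 0.22.

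The called region lies 3.7 kb into the gene (chr1:94047880-94049882). Its log2 density was 2.42 in both LN libraries, 4.39, 4.17 and 4.27 in lung IL-4+ libraries and 3.34 and 3.66 in lung IFNγ+ libraries. The 3 populations did not overlap, with LN cells lowest, lung IFNγ+ cells between and lung IL-4+ cells highest. Lung IL-4+ cells exceeded LN cells by 1.85 (3.61 fold, standard error 0.22, adjusted p = 0.00425) and lung IFNγ+ cells did so by 1.08 (2.11 fold, standard error 0.25, adjusted p = 0.0370, short of the fold threshold). The lung populations differed by 0.77 (standard error 0.22, adjusted p = 0.172). Within the narrow class the difference between the IL-4+ populations was 1.79 and within the wide class 1.97. It was called in 16 of 20 other settings and without any single library, and was lost in the same 4 settings as the Cxcr5 intron region (adjusted p between 0.0678 and 0.135). Between 267 and 2863 insertions per library were counted there.

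Other parts of Pdcd1 did not follow this region. The region at its start (chr1:94050293-94052791) had 4.00 and 3.92 in the LN, 3.93, 4.14 and 4.10 in lung IL-4+ and 3.75 and 3.86 in lung IFNγ+ libraries, a log2 fold change of 0.10 between the IL-4+ populations (standard error 0.20, adjusted p = 0.874). The densest region, downstream of the gene (chr1:94033027-94036462), ranged from 4.94 to 5.37 over all 7 libraries. A pair of regions chosen after their values were seen had the highest densities in lung IFNγ+ cells. Upstream of the gene (chr1:94055618-94056341), the IFNγ+ libraries had 4.71 and 4.75 and the 5 IL-4+ libraries 3.70 to 4.05, a log2 fold change of 0.90 over LN cells (standard error 0.22, adjusted p = 0.0475). In an intron (chr1:94042057-94043116) they had 4.24 and 4.26 beside 3.2 to 3.59, a log2 fold change of 0.91 (standard error 0.24, adjusted p = 0.0663).

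The centre of the called Pdcd1 region (chr1:94048761-94049001, minus strand) is printed as the member sequence with the clearest gain in the lung.
Pdcd1 called intron region: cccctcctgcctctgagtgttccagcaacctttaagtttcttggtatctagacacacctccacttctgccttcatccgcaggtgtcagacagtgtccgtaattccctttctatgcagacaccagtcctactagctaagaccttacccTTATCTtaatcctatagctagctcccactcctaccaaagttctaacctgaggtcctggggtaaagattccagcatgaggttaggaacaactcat
Its capitals, TTATCT, match the GATA motif AGATAA on the other strand, as do 12.4% of all regions in a window of this length. A match is a description of letters and was not tested for binding.

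**Figure D4:**
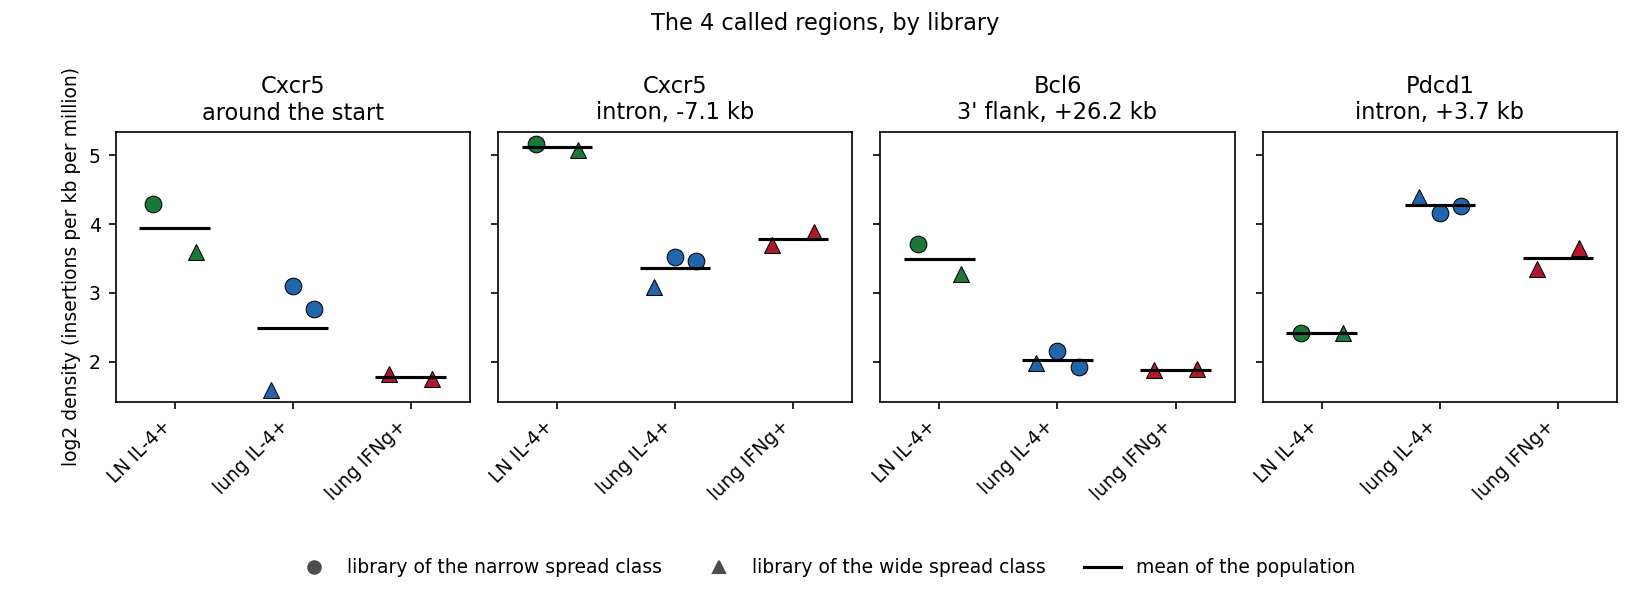
Log2 density (y axis) of the 4 called regions in every library of the 3 populations (x axis); circles are libraries of the narrow and triangles of the wide spread class, bars are means. LN IL-4+ libraries were the highest at both Cxcr5 regions and the Bcl6 region, and the lowest at the Pdcd1 region, where both had 2.42.

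Icos, the costimulatory receptor, held 0 regions called by limma in the 3 comparisons, and 0 at the same fold with an unadjusted p under 0.05, and its summed accessibility in lung IL-4+ cells depended on the library. The gene is on the plus strand of chromosome 1 (chr1:60977927-61000320), with 21 regions. Their sums were 191 and 158 in LN IL-4+, 148, 307 and 315 in lung IL-4+ and 173 and 182 in lung IFNγ+ libraries. Lung IL-4+ replicates 2 and 3, both of the narrow class, were above all others, and replicate 1, of the wide class, was the lowest of all 7. The log2 difference between the IL-4+ populations was 0.56 (exact permutation p = 0.40), at 0.70 within the narrow class and -0.09 within the wide class. That between the lung populations was 0.53 (exact permutation p = 0.40), and -0.26 within the wide class. Of the 21 regions, 18 were above 0 for lung IL-4+ over LN cells, with a median of 0.58. The share below 0 was 14.3%, beside 52.3% of all regions, whose median was -0.03. In the direction of the lung, 0 were called, beside 1.05% of all regions. Libraries did not overlap at 4 regions in that direction (19.0%, beside 13.6% of all regions). The part of the spread class in this pattern was not tested.

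The start region of Icos (chr1:60977381-60978099) was the densest and varied little. It had 4.67 and 5.0 in the LN, 4.92, 4.77 and 5.03 in lung IL-4+ and 4.91 and 4.87 in lung IFNγ+ libraries, and fold changes of 0.07, 0.06 and 0.01 with adjusted p of at least 0.904. The largest change between the IL-4+ populations was at a sparse 3′ region (chr1:61006455-61006855), at 1.40 (standard error 0.74, adjusted p = 0.394) on 4 to 67 insertions per library. The lowest adjusted p at Icos for lung IL-4+ over LN cells, in a region named after its values were seen, was at an intron region 7.3 kb into the gene (chr1:60985014-60985509). It had 3.33 and 4.32 in the LN, 4.91, 4.99 and 4.76 in lung IL-4+ and 4.47 and 4.71 in lung IFNγ+ libraries, with a log2 fold change of 1.07 between the IL-4+ populations (standard error 0.27, adjusted p = 0.0657). Here lung IL-4+ replicate 1 lay with replicates 2 and 3, which it did not over the locus as a whole. Another region, downstream of the gene (chr1:61002747-61004450, also chosen after its values were seen), had a log2 fold change of 1.28 (standard error 0.43, adjusted p = 0.159) and was called without lung IL-4+ replicate 1 (1.70). The sparse 3′ region was called for lung IFNγ+ over LN cells with the spread class as a covariate (2.31).

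Sh2d1a, which encodes SAP, was lower in lung IL-4+ than in LN IL-4+ cells over the whole locus, without a called region, and it lies on the X chromosome (plus strand, chrX:42502453-42529330), whose level differed between libraries. The 15 regions summed to 77.0 and 86.3 insertions in LN IL-4+, 52.0, 36.9 and 33.9 in lung IL-4+ and 58.7 and 61.4 in lung IFNγ+ libraries. The 3 populations did not overlap, with lung IL-4+ cells lowest. Their log2 difference from LN cells was -1.0 (exact permutation p = 0.10, the smallest possible here), that of lung IFNγ+ cells was -0.44 (exact permutation p = 0.33) and that between the lung populations was -0.55 (exact permutation p = 0.20). All 15 regions were below 0 for lung IL-4+ over LN and over lung IFNγ+ cells, with medians of -0.95 and -0.87. At 3 fold and an unadjusted p under 0.05, limma gave 4 and 3 of them, of which 0 passed the adjustment. At the same cut, 2140 and 2192 of all 113820 regions were lower in lung IL-4+ cells.

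Across 2181 regions of the X chromosome the median log2 density was 1.23 in LN IL-4+ replicate 1 and 1.33 and 1.28 in lung IL-4+ replicates 2 and 3, the libraries of the narrow class. In the other 4 libraries it lay between 2.25 and 2.47, while the autosomal medians of all 7 lay between 2.08 and 2.22. The median X region thus had log2 fold changes of -0.28, 0.34 and -0.67 in the 3 comparisons, beside -0.03, -0.03 and 0.01 on the autosomes. Within the narrow class the Sh2d1a sums of lung IL-4+ and LN cells differed by -1.12 and within the wide class by -0.73, and lung IL-4+ and lung IFNγ+ cells differed by -0.21 within the wide class. Relative to the X median of its own library, an alternative chosen after the data were seen, Sh2d1a stood at 1.55 and 0.47 in the LN, -0.04, 0.38 and 0.32 in lung IL-4+ and 0.08 and 0.11 in lung IFNγ+ libraries. On that scale both LN libraries remained above all 5 lung libraries, and the difference between the lung populations turned to 0.12. The part of the X chromosome level in the Sh2d1a values was not tested, and the labels used here give no sex.

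**Figure D5:**
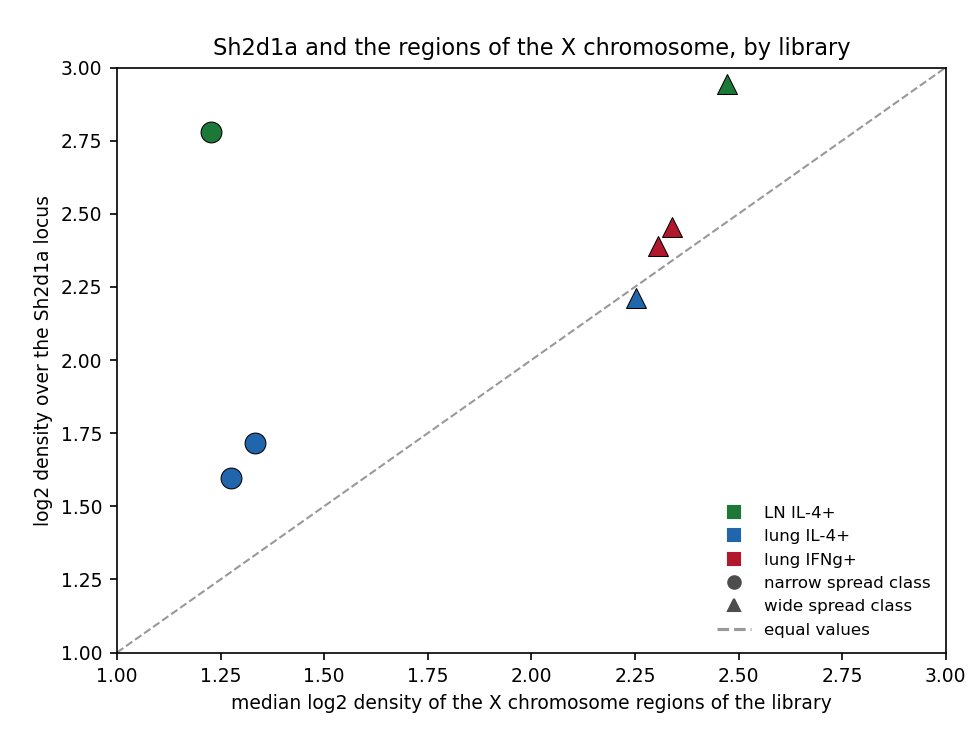
Log2 density over the Sh2d1a locus (y axis) against the median log2 density of the X chromosome regions (x axis) in each of the 7 libraries, coloured by population and shaped by spread class; on the dashed line both are equal. The 3 narrow libraries lay near 1.3 on the x axis, and in each class the LN library had the highest Sh2d1a value.

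The start region of Sh2d1a (chrX:42502141-42503860) was its densest. It had 4.64 and 4.62 in the LN, 3.66, 3.43 and 3.21 in lung IL-4+ and 3.73 and 3.78 in lung IFNγ+ libraries. Both LN libraries had nearly the same value although their X medians differed, and all lung libraries were lower. The log2 fold change was -1.20 between the IL-4+ populations (standard error 0.21, adjusted p = 0.0177, short of the fold threshold), at -1.32 within the narrow and -0.96 within the wide class, and -0.88 for lung IFNγ+ over LN cells (standard error 0.23, adjusted p = 0.0670). The largest change, -2.18 (standard error 0.84, adjusted p = 0.228), was at a sparse intron region (chrX:42506382-42506782) with 12 to 128 insertions per library. Sequence before the start (chrX:42502212-42502452, plus strand) is given because this region was past the p threshold between the IL-4+ populations.
Sh2d1a start: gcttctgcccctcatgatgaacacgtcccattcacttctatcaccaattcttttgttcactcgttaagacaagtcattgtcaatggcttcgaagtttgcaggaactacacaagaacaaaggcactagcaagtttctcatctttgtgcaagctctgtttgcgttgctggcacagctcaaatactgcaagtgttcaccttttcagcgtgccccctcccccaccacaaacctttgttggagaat
No searched motif matched in this window.

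Per kilobase, the order of the loci differed between the populations. In LN IL-4+ cells Cxcr5 had the highest density over its regions, 13.2 ± 4.04 (SD, n = 2), next to Pdcd1 with 12.9 ± 0.361 and Bcl6 with 10.8 ± 2.95, and these 3 did not differ beyond their spread. Sh2d1a followed with 7.28 ± 0.585 and Icos with 5.92 ± 0.796. In lung IL-4+ cells (n = 3) Pdcd1 had 13.8 ± 0.301, Bcl6 10.6 ± 1.93, Icos 8.71 ± 3.2, Cxcr5 6.53 ± 1.86 and Sh2d1a 3.65 ± 0.865, with Bcl6, Icos and Cxcr5 within the spread of their neighbours. In lung IFNγ+ cells (n = 2) the order was Pdcd1 (13.1 ± 0.313), Bcl6 (10.6 ± 0.469), Icos (6.03 ± 0.224), Sh2d1a (5.36 ± 0.168) and Cxcr5 (5.02 ± 0.000957). Cxcr5 was thus among the densest loci in the lymph node and among the sparsest in both lung populations, while the mean of Pdcd1 ranged from 12.9 to 13.8 and that of Bcl6 from 10.6 to 10.8.

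Across the 7 libraries, the genes whose log2 sums followed Cxcr5 most closely were Gon4l, Izumo1r and Inka2 (Pearson r of 0.996, 0.995 and 0.989). Izumo1r encodes folate receptor 4, a surface protein of Tfh and regulatory T cells. For Bcl6 they were Akt2, Nlk and Tlr6 (0.989, 0.983 and 0.960), for Pdcd1 Eml1, Vstm5 and Sh3bp4 (0.979, 0.974 and 0.969), and for Sh2d1a Ccdc150, Gm3460 and Cers4 (0.995, 0.99 and 0.99). For Icos they were Olfr1288 and Olfr1289, which share 1 region (0.988), and Map3k1 (0.981). These are the highest of 17021 genes over 7 libraries that differ in depth and spread class, and they describe these libraries. The part of depth and spread class in these correlations was not tested.

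Other genes of the programme were counted by role, with regions taken in the same way. Among 11 factors that favour the Tfh state (287 regions), 5 regions (1.74%) were called higher in the LN and 1 (0.348%) higher in the lung between the IL-4+ populations. Of all regions, 0.695% and 1.05% were called in these directions. The called regions of the list lay at Tox2, Tox and Pou2af1. Among them the strongest was a Tox2 region with 4.12 and 4.22 in the LN and 1.15 to 1.59 in the lung IL-4+ libraries (-2.79, standard error 0.33, adjusted p = 0.00413). Tox2 and Tox are nuclear factors that support Tfh differentiation. Pou2af1, a coactivator also used by B cells, held a region of each direction (-1.91, adjusted p = 0.00491 and 2.31, adjusted p = 0.0132). Against lung IFNγ+ cells, 4 regions of these factors (1.39%) were higher in the LN, at Tox2, Ascl2 and Stat3, and 1 (0.348%) lower, at Pou2af1, beside 0.862% and 2.17% of all regions. Ascl2 is a factor that induces CXCR5, and its region had 3.55 and 3.01 in the LN and 1.51 and 1.74 in lung IFNγ+ cells (-1.65, standard error 0.37, adjusted p = 0.0330).

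At genes that oppose the Tfh state, more regions were called higher in the lung than in the LN. The background for the IL-4+ populations is 1.05% and 0.695% of all regions, and that for IFNγ+ over LN cells 2.17% and 0.862%, so that the shares of this list lay near it. Of 322 regions at 9 such genes, 4 were called higher in lung IL-4+ and 1 in LN IL-4+ cells (1.24% and 0.311%), and 9 were higher in lung IFNγ+ and 3 in LN IL-4+ cells (2.8% and 0.932%). Il2ra encodes a chain of the receptor for IL-2, a cytokine whose signal acts against Bcl6. It had 3.5 and 4.31 at 1 region in the LN and 5.28 to 5.66 in lung IL-4+ libraries (1.61, standard error 0.24, adjusted p = 0.00881). Tbx21, which encodes T-bet, the Th1 factor, rose at 1 region in lung IL-4+ cells (2.19, standard error 0.29, adjusted p = 0.00598) and at 3 regions in lung IFNγ+ cells. Prdm1, which encodes Blimp-1, the repressor that antagonizes Bcl6, had 1 region called higher in lung IFNγ+ cells (1.79, standard error 0.25, adjusted p = 0.00496). Foxp1 held calls in both directions, and Stat5b, which transmits IL-2 signals, had 1 region that was higher in LN IL-4+ than in IFNγ+ cells (-1.75, adjusted p = 0.0424). At Stat3 and Stat5a the call against IFNγ+ cells is the same region, since these genes adjoin, and it was counted under both lists.

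Among 18 surface and signalling molecules of Tfh cells (370 regions), 3 regions were higher in LN than in lung IL-4+ cells (0.811%) and 1 lower (0.270%). Of all regions, 0.695% and 1.05% were called in these directions, so that the LN share of this list lay near that of all regions. Btla, an inhibitory receptor, had 5.32 and 5.47 in the LN and 3.45 to 3.73 in lung IL-4+ libraries (-1.86, standard error 0.27, adjusted p = 0.00826), and Il6st, the shared receptor chain for IL-6, changed by -2.01 (adjusted p = 0.00826). Ctla4, an inhibitory receptor that binds the ligands of CD28, held the third such region (-1.74, adjusted p = 0.00985). Ly9, a SLAM family receptor that SAP serves, had the 1 region that was higher in lung IL-4+ cells (1.73, adjusted p = 0.0295). For lung IFNγ+ cells, 4 regions of this list (1.08%) were higher in the LN, at Btla, Il6st and Il6ra, and 2 (0.541%) lower, at Slamf1 and Ctla4, beside 0.862% and 2.17% of all regions. Of 45 regions at 4 receptors that hold cells outside the follicle, 0 were called between the IL-4+ populations. A single region (2.22%), at Gpr183, was called higher in the LN than in IFNγ+ cells (-2.75, adjusted p = 0.00586), beside 0.862% of all regions. Il4 and Il21, the cytokines of Tfh cells, had 20 regions. Of these, 3 at Il4 (15%) were called higher in the LN, and 3 (15%) in lung IL-4+ cells, than among IFNγ+ cells. The shares of all regions were 0.862% and 0.108%. Both IL-4+ populations were sorted by a reporter of IL-4 expression, so that these calls at Il4 are no independent result. Between the IL-4+ populations, 0 of the cytokine regions were called. Median log2 fold changes of the lists ran from -1.05 to 1.52, with both ends at the cytokines.

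Motifs were searched on both strands in the same central window, and shares are given beside those of all regions. The TCF7 letters, ATCAAAG with TTCAAAG as the other form, matched in 20.2% of the members and 16.3% of all regions. Those of NFAT, written TGGAAAA here, matched in 12.4% of the members beside 9.58% of all regions. The T-box letters AGGTGTGA were present in 3.37% of the members and 2.20% of all regions. The bZIP motif TGANTCA matched in 8.99% of the members and 16.0% of all regions. RUNX, searched as AACCACA, was found in 8.99% of the members beside 13.6% of all regions. The GATA motif spelled out above matched in 14.6% of the members and 19.8% of all regions. The E-box that ASCL2 recognizes, CAGCTG, was found in 13.5% of the members beside 20.7% of all regions. These shares rest on 3 to 18 member regions each and were not tested.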

How the data were processed

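ATAC-seq was available for CD4+ T cells: IL-4+ from the LN (n = 2), IL-4+ from the lung (n = 3) and IFNγ+ from the lung (n = 2), as the sample labels name them. The authors mapped reads to GRCm38/mm10 with Bowtie2 2.3.2, called summits per replicate with MACS2 2.1.1, merged regions over replicates, and normalized insertion counts per region with voom (limma 3.38.3). The deposited values are log2 insertions per kilobase, scaled to library size, and by their distribution they are also quantile-normalized. Every column of the table was used. Counts were rebuilt from tied values and are lower bounds, so depth covers counting error only.

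Regions overlapping a GENCODE M21 gene or its 10 kb flanks were assigned to it. All 113820 regions entered 1 fit of their log2 values by limma 3.58.1 in R 4.3.3 (lmFit with 1 mean per population, eBayes with a variance trend, Benjamini-Hochberg adjustment over all regions within a comparison). Low values were kept and nothing was added to them, and the fit was tested on simulated data. Locus sums added the antilog values times region length, and were compared by exact two-sided permutation over libraries. A region counted as accessible where some population's mean density reached 5, which 57 of the 89 did (66252 of all).

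The members, gene lists and tests were chosen with earlier results of these data known. Named regions were those called, at a start, with the highest mean or with the largest change between the IL-4+ populations, and exceptions are marked. Genes of the pathway lists were named where they held a called region. Alternatives were other scalings, filters, fits, thresholds, flanks and left-out libraries, and 1 added later, the X chromosome level. Sequences are GRCm38 (RefSeq assembly). Python 3.11.15 with numpy 2.4.6, pandas 2.3.3, scipy 1.17.1, pysam 0.24.0 and matplotlib 3.10.9 was used. A marker gene and a sequence window are not reported here.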

Additional observations from a re-analysis of the deposited data

How the results depend on the processing

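The direction of the 4 called regions held in all 20 other settings of the fit, with log2 fold changes of -2.51 to -1.50 and -1.84 to -1.62 at Cxcr5, -1.83 to -1.39 at Bcl6 and 1.63 to 1.91 at Pdcd1. Locus sums at Cxcr5 and Sh2d1a kept their direction against the LN in every alternative. Low insertion counts limit the sparse regions, and 2 or 3 libraries a population limit every test. The causes of the changes below were not tested.

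Calls over all regions moved with the setting too. Between the IL-4+ populations, the 2 calls at the members became 6 with the spread class as a covariate (all regions from 1191 higher and 791 lower in the lung to 2436 and 1580), 5 at a fold change of at least 2 (2016 and 1161) or with no fold minimum (2137 and 1198), 4 with flanks of 50 kb, and 0 with voom on rebuilt counts or without the variance trend, where limma called 0 of all regions too (3490 and 1354 in the 2 directions at that fold and an unadjusted p under 0.05 with voom, 2365 and 2140 without the trend). For IFNγ+ cells against the LN, 2 calls became 6 at a fold change of at least 2 (all regions from 2469 and 981 to 3332 and 1299), 7 with no fold minimum (3445 and 1321), 4 with 50 kb, 1 with log2(density + 1), median centring, quantile normalization, voom on rebuilt counts, a fit of 2 populations or the gene body alone, and 0 without the variance trend (1051 and 408) or with treat at a fold of 1.5 (843 and 207). Without lung IL-4+ replicate 1 there were 3 calls at the members (all regions 2803 and 1293). There were 0 without replicate 2 (1715 and 614) and 1 without replicate 3 (2379 and 902). Leaving out a library of the LN or of IFNγ+ cells leaves 1 in that population, so calls are not counted there. Between the lung populations, 0 calls became 3 with array weights, where calls over all regions rose from 123 and 441 to 3121 and 3440, and 1 with 50 kb.

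Whether the replicate numbers pair the libraries could not be decided. Deviations of libraries with the same number correlated at -0.54 and -0.30 between the IL-4+ populations and between -0.02 and 0.06 in the other pairs. In a population of 2 libraries the deviations from the mean mirror each other, so that these values cannot show or exclude a pairing. With a replicate block, alone or with a GC correction, 0 member regions were called in each comparison. It called 0 of all 113820 regions between the IL-4+ and between the lung populations, and 468 and 88 (106 and 10 with the correction) for IFNγ+ cells against the LN.

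The following locus sums changed sign. Bcl6 turned to 0.0306 for the gene body alone between the IL-4+ populations (left-out libraries -0.285 to 0.279), to 0.0502 with scaled rebuilt counts and 0.22 with the spread class for lung IFNγ+ over LN cells (left-out libraries -0.282 to 0.282), and to 0.0357 for the gene body and 0.11 as a mean log2 value between the lung populations (left-out libraries -0.152 to 0.11). Pdcd1 turned to -0.000825 with the spread class for lung IFNγ+ over LN cells (left-out libraries -0.0109 to 0.0461) and to -0.0260 with 50 kb between the lung populations. Icos turned to -0.0271 with 25 kb for lung IFNγ+ over LN cells (left-out libraries -0.105 to 0.17) and to -0.0361 with the spread class between the lung populations. Between those, Cxcr5 turned to -0.15 with the spread class and Sh2d1a to 0.12 relative to the X median.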

Other observations

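Beyond the 10 kb flanks, within 200 kb of each gene, 71 further regions lay around Cxcr5, 21 around Bcl6, 12 around Pdcd1, 81 around Icos and 28 around Sh2d1a. Around Cxcr5, 1 of them was called between the IL-4+ populations, higher in the lung, and 0 for IFNγ+ cells against the LN, while their median log2 fold changes were -0.20 and -0.52, beside -0.83 and -1.28 at Cxcr5 itself. Around Icos, a stretch that includes its relative Ctla4, which encodes the inhibitory receptor CTLA-4, 1 region was called higher in lung IL-4+ and 3 in LN IL-4+ cells, 3 were higher in IFNγ+ than in LN cells, and 1 was higher in IFNγ+ than in IL-4+ cells of the lung. Around Sh2d1a 2 were called, both higher in the LN than in IL-4+ lung cells. The median was -0.79 over the 28, beside an X chromosome median of -0.28. Around Bcl6 1 was called higher in LN than in lung IL-4+ cells, and 1 higher in lung IFNγ+ than in LN cells. Around Pdcd1 1 was higher in lung IFNγ+ than in LN cells. Over all regions, 1.05% and 0.695% were called higher and lower in lung IL-4+ than in LN cells, 2.17% and 0.862% in lung IFNγ+ than in LN cells, and 0.387% higher in lung IFNγ+ than in lung IL-4+ cells.

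Markers of regulatory T cells, which share the receptors ICOS, CTLA-4 and PD-1 with Tfh cells, were accessible in all libraries. Foxp3 had a log2 density at its start between 4.77 and 5.15 and Ikzf2, which encodes Helios, between 3.99 and 5.10. Their summed density was 61.3 to 64.7 in LN IL-4+, 46.4 to 54.9 in lung IL-4+ and 58.3 to 62.3 in lung IFNγ+ libraries. The low place of the lung IL-4+ libraries came from Ikzf2, at 3.99 to 4.70 there, 4.86 and 5.04 in the LN and 4.96 and 5.10 in lung IFNγ+ libraries. Foxp3 was at 5.15 and 4.83 in the LN, 4.83 to 4.93 in lung IL-4+ and 4.77 and 4.81 in lung IFNγ+ libraries. The Foxp3 gene is on the X chromosome as well.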
